A study of Homo sapiens with 24 samples.

Results

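The 10 genes described here are markers and regulators of the epithelial and mesenchymal states of a carcinoma cell. CDH1, EPCAM and ELF3 stand on the epithelial side, CDH2, VIM, S100A4 and MMP2 on the mesenchymal side, and ZEB1, ZEB2 and SNAI2 encode repressors of epithelial genes. They are 10 of the 25168 genes in the count tables. The rule that picks them out uses gene symbols and no measured value, but the members were chosen with earlier results of these data known. Their RNA was counted in 24 libraries from PANC1 and BXPC3, established human cell lines of pancreatic ductal adenocarcinoma. Each line was treated for 24 h with SR4 and lonidamine together, with 5 uM SR4, with 300 uM lonidamine or with vehicle, in 3 libraries per group. SR4 is known as a mitochondrial uncoupler, and lonidamine as an inhibitor of glycolysis and of pyruvate and lactate transport. The labels name neither the vehicle nor separate doses within the combination, and they name no engineered allele in any group. Cells of all groups grew in low-glucose medium with serum. Each line is a single line, so a difference between PANC1 and BXPC3 is one between these lines only.

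Epithelial cells hold to their neighbours through E-cadherin, while mesenchymal cells carry N-cadherin and vimentin filaments, move more freely and degrade matrix. In the epithelial to mesenchymal transition (EMT), repressors of the ZEB and SNAIL families bind E-box motifs in the promoters of epithelial genes such as CDH1. Pancreatic carcinoma lines differ widely along this axis, with BXPC3 usually placed near the epithelial end and PANC1 near the mesenchymal end.

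The E-box bound by these repressors reads CACCTG, or CAGGTG on the other strand. It was searched on both strands in windows of 300 bases, from 250 bases before to 50 bases after each gene's start (RefSeq, GRCh38.p14). Windows were examined gene by gene for 6 of the 10 genes: ELF3, CDH2, VIM, S100A4, ZEB1 and ZEB2. None was examined in this way for CDH1, EPCAM, MMP2 and SNAI2, so the motif in their windows was not tested. Of all 35116 windows, 20.6% held the motif and 3.49% held it at least 2 times. It was found in the windows of ELF3 and S100A4 and in 2 of 7 windows of ZEB1, but not in those of CDH2, VIM and ZEB2. For the epithelial and mesenchymal members examined, ELF3, S100A4, CDH2 and VIM, a window is shown. Each reads 5′ to 3′ on the gene's own strand with the motif in capitals. The ELF3 window lies at chr1:202010337-202010636 (plus strand), with the motif starting at base -120 from the gene's start:
ELF3: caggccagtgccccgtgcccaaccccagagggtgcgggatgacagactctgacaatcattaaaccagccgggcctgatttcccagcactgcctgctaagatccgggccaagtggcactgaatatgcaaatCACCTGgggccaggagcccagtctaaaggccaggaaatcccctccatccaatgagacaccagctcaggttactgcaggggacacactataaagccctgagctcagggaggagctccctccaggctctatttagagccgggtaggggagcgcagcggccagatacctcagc
The S100A4 window lies at chr1:153545757-153546056 (minus strand), with the motif starting at base -164:
S100A4: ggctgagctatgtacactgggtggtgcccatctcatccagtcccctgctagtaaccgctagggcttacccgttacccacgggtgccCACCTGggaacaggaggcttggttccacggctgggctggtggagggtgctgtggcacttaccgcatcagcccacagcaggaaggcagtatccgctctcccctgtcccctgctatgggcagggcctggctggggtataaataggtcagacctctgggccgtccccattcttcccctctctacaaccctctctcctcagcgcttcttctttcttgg
The first of the 2 CDH2 windows lies at chr18:28177081-28177380 (minus strand):
CDH2: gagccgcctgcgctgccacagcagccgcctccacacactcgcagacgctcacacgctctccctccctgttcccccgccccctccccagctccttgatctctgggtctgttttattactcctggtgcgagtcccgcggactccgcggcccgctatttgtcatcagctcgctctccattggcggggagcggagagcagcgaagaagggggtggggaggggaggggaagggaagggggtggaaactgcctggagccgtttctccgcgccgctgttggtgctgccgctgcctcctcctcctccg
The VIM window lies at chr10:17227991-17228290 (plus strand):
VIM: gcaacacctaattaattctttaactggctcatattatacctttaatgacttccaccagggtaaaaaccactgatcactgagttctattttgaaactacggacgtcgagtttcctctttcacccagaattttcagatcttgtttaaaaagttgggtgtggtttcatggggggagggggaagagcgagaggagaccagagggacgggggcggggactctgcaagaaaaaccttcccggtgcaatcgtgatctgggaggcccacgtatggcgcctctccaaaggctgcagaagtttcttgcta
A match describes these letters only and shows no binding. Each window belongs to a start annotated by RefSeq, and the spans of ELF3 (chr1:202007945-202017188) and S100A4 (chr1:153543613-153550136) in the deposited tables (GRCh38, per the submitters' processing notes) reach further upstream. The deposited spans given below are on the same build.

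The libraries held 8873041 to 11822495 counts in PANC1 and 9142433 to 11470973 in BXPC3. Levels are given in CPM, counts divided by library size on a scale shared by all 24 libraries, and in CPM per kilobase where 1 gene is set against another. Taken as the floor of detection, 3 counts correspond to at most 0.338 CPM in PANC1 and 0.328 CPM in BXPC3. Of 9 ductal cell markers, the highest with vehicle was the keratin KRT8 in PANC1 (1843 CPM) and the keratin KRT7 in BXPC3 (1931 CPM). Changes are log2 values from the quasi-likelihood test of edgeR, with p-values adjusted by Benjamini-Hochberg over all genes tested in a line (12514 in PANC1, 12920 in BXPC3), called at an adjusted p under 0.05. The labels do not say whether the 3 libraries of a group came from separate cultures, so p-values measure the spread between these libraries, which may be technical. The 3 comparisons with vehicle within a line share their vehicle libraries. With 3 libraries against 3, an exact permutation test of a single gene cannot go below 0.1, so the calls rest on the fit over all genes.

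With vehicle alone, the lines lay far apart in these genes. All 9 members tested differed between PANC1 and BXPC3, 5 higher and 4 lower in PANC1, beside 84.3% of 13930 genes called (41.3% higher and 43% lower), so that a called difference is the rule between these lines and its size is what sets a gene apart. VIM, the intermediate filament of mesenchymal cells, stood at 4116, 4047 and 4028 CPM in PANC1 and at 70.0, 65.0 and 66.8 CPM in BXPC3, a log2 difference of 5.92 (SE 0.0448, adjusted p = 2.49e-47). CDH1, which encodes E-cadherin, stood at 14.1, 18.7 and 18.1 CPM in PANC1 and at 567, 524 and 555 CPM in BXPC3, a log2 difference of -5.02 (SE 0.0645, adjusted p = 2.73e-40). The lines did not overlap in any of the 9 genes, but the share of all genes without overlap was not counted. The mesenchymal members CDH2, S100A4 and MMP2 were higher in PANC1 by 3.39, 3.64 and 8.68 on the log2 scale, and the repressor ZEB1 by 5.43. MMP2 had only 10 counts in the 3 BXPC3 libraries together.

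EPCAM and ELF3 were lower in PANC1, at log2 differences of -2.98 and -1.31, so that ELF3 was the epithelial member with the smallest gap between the lines. The repressors did not all follow the mesenchymal genes. SNAI2, which encodes the repressor SLUG, stood at 0.411, 0.109 and 0.215 CPM in PANC1 and at 113, 113 and 115 CPM in BXPC3, a log2 difference of -8.77 (SE 0.130, adjusted p = 2.43e-38). The line with the high CDH1 level thus had the high SNAI2 level. ZEB2 was not tested because its counts were too low: it had 2, 3 and 2 counts in the PANC1 libraries and 3, 4 and 2 counts in those of BXPC3, near the floor of detection.

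Per kilobase of gene length, as listed in the deposited tables, VIM led in PANC1 at 820.0 ± 9.36 CPM per kilobase, followed by S100A4 at 137 ± 3.27 and CDH2 at 30.5 ± 1.21 (SD, n = 3 each). CDH1 stood at 2.75 ± 0.410 CPM per kilobase there, below ZEB1 at 7.33 ± 0.0828 and close to ELF3 at 2.995 ± 0.256 (SD, n = 3 each). In BXPC3, CDH1 and EPCAM led together at 89.1 ± 3.58 and 88.4 ± 3.87 CPM per kilobase, and the third was SNAI2 at 49.8 ± 0.584 (SD, n = 3 each). ZEB1 stood at 0.167 ± 0.0403 CPM per kilobase in BXPC3 (SD, n = 3).

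**Figure D1:**
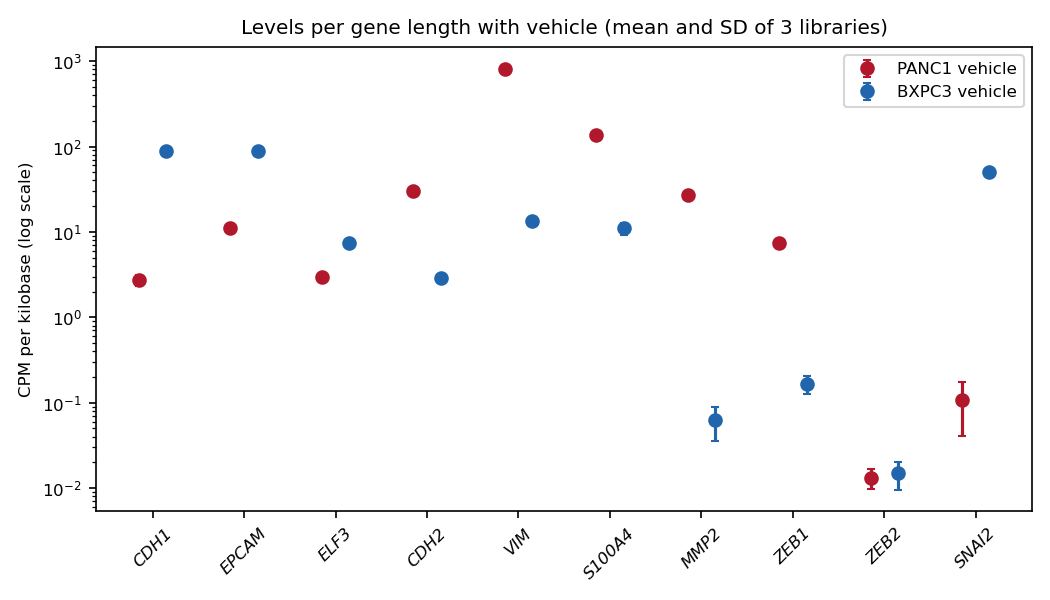
Levels of the 10 genes with vehicle, as CPM per kilobase of gene length on a log scale, in PANC1 (red, left of each pair) and BXPC3 (blue); points are means and bars the SD of 3 libraries. PANC1 is higher in VIM, S100A4, CDH2, MMP2 and ZEB1, and BXPC3 in CDH1, EPCAM, ELF3 and SNAI2.

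The treatments changed most genes, and the members' counts have to be read against that. With the combination, 1 member rose and 7 fell of 8 tested in PANC1, beside 81.1% of all genes called (40.1% higher, 40.9% lower). In BXPC3, 4 rose and 4 fell of 8 tested, beside 79.2% (39.7% higher, 39.5% lower). With SR4, 2 rose and 5 fell of 8 in PANC1 beside 71.7% (35% higher, 36.7% lower), and 3 rose and 3 fell of 8 in BXPC3 beside 67.2% (33.4% higher, 33.9% lower). With lonidamine, 1 rose and 6 fell of 8 in PANC1 beside 69.2% (35% higher, 34.2% lower), and 4 rose and 3 fell of 8 in BXPC3 beside 67.5% (34.8% higher, 32.7% lower). Over both directions these counts lie near the shares of all genes, so the sizes of single members carry the description below. In PANC1, 5 to 7 of the 8 members were lower under each treatment, against at most 40.9% of all genes, and no test was made of that excess. The members not tested were SNAI2 and ZEB2 in PANC1 and MMP2 and ZEB2 in BXPC3. In these bulk samples, fewer cells of a kind and less RNA per cell cannot be told apart.

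**Figure D2:**
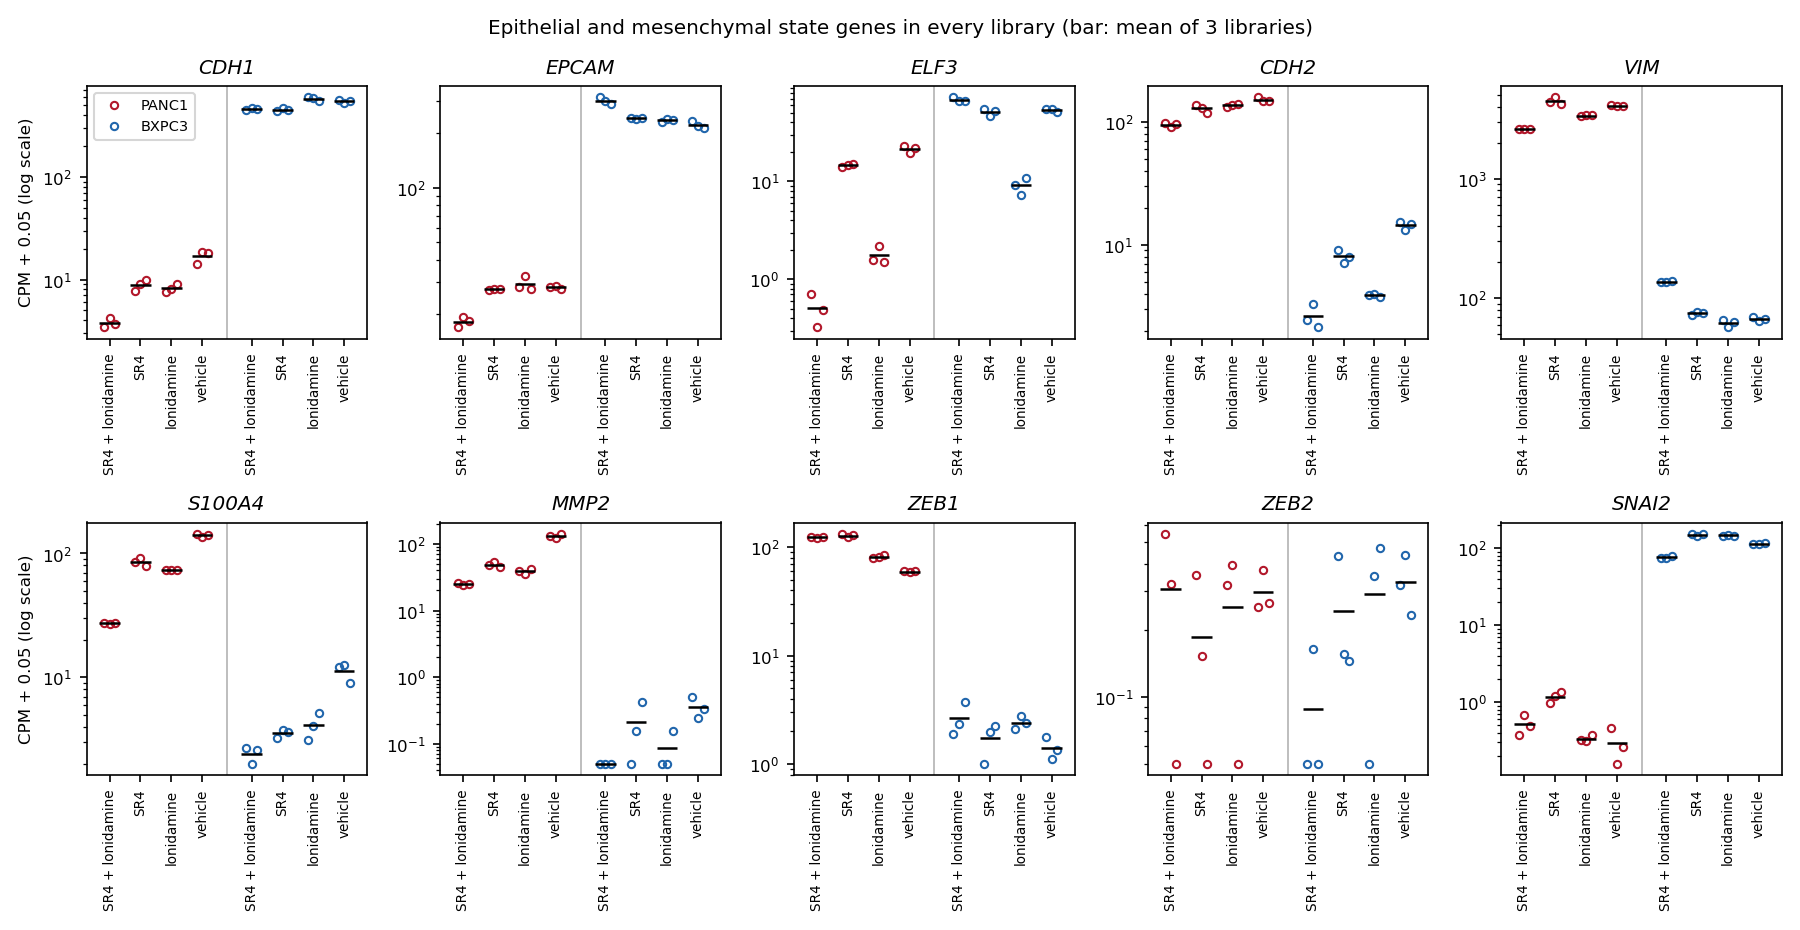
CPM plus an offset of 0.05 on a log scale in every library, 1 panel per gene; PANC1 (red) left and BXPC3 (blue) right of the grey line, each with the combination, SR4, lonidamine and vehicle from left to right, circles for libraries and black bars for the mean of 3. ELF3 is low with lonidamine in both lines, and with the combination it is lowest in PANC1 and highest in BXPC3.

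ELF3, an epithelial transcription factor of the ETS family, had the largest change with any treatment. Lonidamine lowered it in both lines, and adding SR4 to lonidamine lowered it further in PANC1 but took it above vehicle in BXPC3. In PANC1, ELF3 stood at 0.659, 0.275 and 0.436 CPM with the combination, 13.9, 14.6 and 15.1 CPM with SR4, 1.53, 2.15 and 1.46 CPM with lonidamine and 23.0, 19.5 and 22.1 CPM with vehicle. No pair of groups overlapped, and the combination libraries held only 8, 3 and 5 counts. In BXPC3, ELF3 stood at 71.7, 66.1 and 65.6 CPM with the combination, 54.6, 46.3 and 52.4 CPM with SR4, 9.19, 7.21 and 10.8 CPM with lonidamine and 55.0, 55.0 and 50.5 CPM with vehicle. Here SR4 and vehicle overlapped, lonidamine lay below all other groups, and the combination lay above all.

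In PANC1 the log2 change of ELF3 was -5.46 (SE 0.207, adjusted p = 1.76e-19) with the combination, -3.67 (SE 0.159, adjusted p = 1.10e-17) with lonidamine and -0.57 (SE 0.111, adjusted p = 5.11e-05) with SR4. In BXPC3 it was 0.35 (SE 0.0711, adjusted p = 7.59e-05) with the combination, -2.55 (SE 0.0997, adjusted p = 3.59e-18) with lonidamine and -0.07 (SE 0.0723, adjusted p = 0.419) with SR4, the last not past the threshold. Against lonidamine alone, the combination was 7.47-fold higher in BXPC3, a log2 change of 2.90 (SE 0.0983, adjusted p = 4.25e-19), and lower in PANC1 at -1.79 (SE 0.348, adjusted p = 4.39e-05).

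CDH1 (deposited span chr16:68737225-68835548) fell in PANC1 with each treatment, and changed by less than 0.3 on the log2 scale in BXPC3. In PANC1, CDH1 stood at 3.38, 4.12 and 3.67 CPM with the combination, 7.60, 9.02 and 9.77 CPM with SR4, 7.45, 8.09 and 9.06 CPM with lonidamine and 14.1, 18.7 and 18.1 CPM with vehicle. The vehicle libraries lay above all treated ones, SR4 and lonidamine overlapped, and the combination lay lowest. The log2 change was -2.14 (SE 0.151, adjusted p = 2.62e-13) with the combination, -0.94 (SE 0.132, adjusted p = 3.61e-07) with SR4 and -1.06 (SE 0.130, adjusted p = 3.98e-08) with lonidamine. In BXPC3, CDH1 stood at 455, 474 and 466 CPM with the combination, 441, 474 and 448 CPM with SR4, 598, 593 and 549.8 CPM with lonidamine and 567, 524 and 555 CPM with vehicle. The combination and SR4 lay below vehicle and overlapped each other, while lonidamine overlapped vehicle. The log2 change of CDH1 was -0.23 (SE 0.0388, adjusted p = 5.80e-06) with the combination and -0.28 (SE 0.0386, adjusted p = 5.46e-07) with SR4. The value with lonidamine was 0.09 (SE 0.0384, adjusted p = 0.0358), a call that ended without vehicle replicate 2, lonidamine replicate 1 or lonidamine replicate 2 (adjusted p = 0.225, 0.145 and 0.131). It also ended with DESeq2's size factors, with its test, without the low-count filter and with only the groups compared (adjusted p = 0.075, 0.102, 0.073 and 0.0923).

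EPCAM, an adhesion molecule of epithelial cells (deposited span chr2:47345158-47387601), fell in PANC1 and rose in BXPC3 with the combination. In PANC1, EPCAM stood at 16.96, 19.2 and 18.2 CPM with the combination, 27.2, 27.6 and 27.7 CPM with SR4, 28.3, 32.5 and 27.5 CPM with lonidamine and 28.1, 28.7 and 27.6 CPM with vehicle. The combination lay below every other library, and the other 3 groups overlapped. In BXPC3, EPCAM stood at 314, 298 and 289 CPM with the combination, 243, 238 and 242 CPM with SR4, 231, 238 and 235 CPM with lonidamine and 232, 219.8 and 213 CPM with vehicle. The combination lay above every other library, SR4 lay above vehicle, and lonidamine overlapped both. The log2 change with the combination was -0.59 (SE 0.0836, adjusted p = 3.34e-07) in PANC1 and 0.45 (SE 0.0396, adjusted p = 8.11e-11) in BXPC3. In PANC1, SR4 gave -0.04 (SE 0.0801, adjusted p = 0.707) and lonidamine 0.05 (SE 0.0772, adjusted p = 0.611), neither past the threshold. In BXPC3, SR4 gave 0.12 (SE 0.0397, adjusted p = 0.0118) and lonidamine 0.09 (SE 0.0398, adjusted p = 0.038). The SR4 call ended without vehicle replicate 3 (adjusted p = 0.0721), and the lonidamine call without vehicle replicate 2 or 3 or lonidamine replicate 2 or 3 (adjusted p = 0.103, 0.17, 0.12 and 0.0711). The lonidamine call also ended with DESeq2's size factors, with its test, without the low-count filter and with only the groups compared (adjusted p = 0.0801, 0.117, 0.123 and 0.0994).

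Beside these epithelial genes, the summed level of 9 markers of ductal cells was lower with each treatment in both lines. In PANC1 the sum spanned 807 to 845 CPM with the combination, 1863 to 2130.0 with SR4, 1042 to 1136 with lonidamine and 3640.0 to 3803 with vehicle. In BXPC3 the same sum spanned 2967 to 3006, 4535 to 4723, 3913 to 4081 and 5590.0 to 6086 CPM in the same order. Its part in the results for CDH1, EPCAM and ELF3 was not tested.

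Among the mesenchymal members, VIM (deposited span chr10:17228259-17237593) fell in PANC1 and rose in BXPC3 with the combination. In PANC1, VIM stood at 2600.0, 2617 and 2621 CPM with the combination, 4410.0, 4781 and 4218 CPM with SR4, 3321, 3384 and 3386 CPM with lonidamine and 4116, 4047 and 4028 CPM with vehicle. Every group stood clear of the others there, with SR4 highest and the combination lowest. In BXPC3, VIM stood at 137, 138 and 139 CPM with the combination, 73.0, 76.1 and 75.3 CPM with SR4, 65.2, 57.2 and 63.4 CPM with lonidamine and 70.0, 65.0 and 66.8 CPM with vehicle. The combination lay far above the rest, SR4 lay above vehicle, and lonidamine overlapped vehicle. With the combination, the log2 change was -0.59 (SE 0.0319, adjusted p = 6.63e-16) in PANC1 and 1.04 (SE 0.0505, adjusted p = 2.10e-16) in BXPC3. The BXPC3 level was thus 2.06-fold that of vehicle. With the combination, VIM still averaged 2613 ± 11.01 CPM in PANC1 and 138 ± 1.12 CPM in BXPC3 (SD, n = 3 each). SR4 raised VIM slightly in both lines, by 0.14 (SE 0.0317, adjusted p = 4.23e-04) in PANC1 and 0.15 (SE 0.0531, adjusted p = 0.0173) in BXPC3. The BXPC3 call ended without vehicle replicate 2 (adjusted p = 0.0829) and with DESeq2's test (adjusted p = 0.062). With lonidamine VIM fell in PANC1, at a log2 change of -0.29 (SE 0.0317, adjusted p = 4.69e-09), and its value in BXPC3, -0.11 (SE 0.0547, adjusted p = 0.0845), did not pass. That value passed without lonidamine replicate 1 (adjusted p = 0.0395) and with DESeq2's size factors (adjusted p = 0.0483). VIM-AS1 overlaps VIM on the other strand and averaged 4.16 ± 0.757 CPM with the combination and 7.23 ± 1.18 CPM with vehicle in PANC1, and 2.38 ± 0.360 and 1.24 ± 0.440 CPM in BXPC3 (SD, n = 3 each). Without a stated strand setting, reads of the pair cannot be told apart.

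CDH2, which encodes N-cadherin (deposited span chr18:27950966-28177446), fell with all 3 treatments in both lines, and fell more in BXPC3, where its level with vehicle was the lower one. In PANC1, CDH2 stood at 96.8, 89.95 and 95.4 CPM with the combination, 136, 130.1 and 118 CPM with SR4, 132, 136 and 139 CPM with lonidamine and 157, 147 and 146 CPM with vehicle. The combination lay lowest, SR4 and lonidamine overlapped, and vehicle lay highest. In BXPC3, CDH2 stood at 2.40, 3.23 and 2.08 CPM with the combination, 9.01, 7.00 and 7.86 CPM with SR4, 3.82, 3.91 and 3.70 CPM with lonidamine and 15.1, 13.1 and 14.7 CPM with vehicle. No groups overlapped there, in the order vehicle, SR4, lonidamine and combination from high to low. The log2 change with the combination was -0.63 (SE 0.0491, adjusted p = 2.63e-12) in PANC1 and -2.47 (SE 0.168, adjusted p = 3.15e-13) in BXPC3. With SR4 it was -0.23 in PANC1 and -0.85 in BXPC3 (adjusted p = 1.15e-04 and 2.07e-06). With lonidamine it was -0.17 in PANC1 and -1.90 in BXPC3 (adjusted p = 0.00294 and 1.53e-11).

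S100A4, a calcium-binding protein tied to cell motility, also fell with all 3 treatments in both lines. In PANC1, S100A4 stood at 27.5, 27.0 and 27.2 CPM with the combination, 84.9, 92.5 and 78.8 CPM with SR4, 73.6, 73.3 and 73.0 CPM with lonidamine and 144, 137 and 139.8 CPM with vehicle. All 4 groups stood apart. In BXPC3, S100A4 stood at 2.62, 1.96 and 2.54 CPM with the combination, 3.16, 3.71 and 3.60 CPM with SR4, 3.10, 4.01 and 5.07 CPM with lonidamine and 12.1, 12.6 and 9.03 CPM with vehicle. Vehicle lay above every treated library, SR4 and lonidamine overlapped, and the combination lay below both. The log2 change with the combination was -2.31 (SE 0.0565, adjusted p = 7.22e-24) in PANC1 and -2.22 (SE 0.200, adjusted p = 1.11e-10) in BXPC3. With SR4 it was -0.72 in PANC1 and -1.69 in BXPC3 (adjusted p = 2.63e-13 and 4.47e-09), and with lonidamine -0.95 and -1.45 (adjusted p = 4.73e-16 and 4.43e-08). S100A3 overlaps S100A4 on the same strand, so reads shared between them could not be told apart. It averaged 3.19 ± 0.829 CPM with the combination and 3.49 ± 0.414 CPM with vehicle in BXPC3 (SD, n = 3 each), where S100A4 averaged 2.38 ± 0.363 and 11.2 ± 1.91 CPM. Its part in the result for S100A4 was not tested.

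MMP2, a gelatinase that cleaves matrix collagen (deposited span chr16:55389700-55506691), fell with every treatment in PANC1 and had next to no counts in BXPC3. In PANC1, MMP2 stood at 25.7, 24.2 and 25.4 CPM with the combination, 48.0, 53.9 and 44.8 CPM with SR4, 38.9, 35.7 and 41.7 CPM with lonidamine and 130.0, 125 and 141 CPM with vehicle. The groups did not overlap, in the order vehicle, SR4, lonidamine and combination from high to low. The log2 change was -2.35 (SE 0.0679, adjusted p = 3.52e-22) with the combination, -1.44 (SE 0.0626, adjusted p = 1.24e-17) with SR4 and -1.78 (SE 0.0631, adjusted p = 9.84e-20) with lonidamine. In BXPC3, MMP2 had 0 counts in the 3 combination libraries together, 5 with SR4, 1 with lonidamine and 10 with vehicle. These counts lie near the floor. The depth-adjusted ratio to vehicle was 0 with the combination (95% exact interval up to 0.532), 0.537 (0.144 to 1.72) with SR4 and 0.109 (0.00250 to 0.764) with lonidamine, counting error only. The intervals for the combination and lonidamine lay below 1, and their libraries did not overlap those of vehicle.

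Markers of fibroblasts could bring mesenchymal RNA. Summed in PANC1 with vehicle, these markers lay above ZEB1 (mean 59.5 CPM) and below MMP2 (mean 132 CPM). Their sum over 10 genes spanned 19.0 to 19.3 CPM with the combination, at most 19.6 with SR4, 33.7 to 38.1 with lonidamine and 91.3 to 97.1 CPM with vehicle in PANC1. It spanned 25.6 to 32.4, 34.5 to 36.3, 23.5 to 26.4 and 36.7 to 37.2 CPM in BXPC3, in the same order of groups. COL1A1 was the highest marker in every group, and DCN, FAP and COL1A2 had 0 counts in all PANC1 libraries. The sum was thus lower with each treatment in both lines, as were CDH2 and S100A4, and in PANC1 also MMP2. COL1A1 averaged 15.2 CPM with the combination and 79.2 CPM with vehicle in PANC1, but 23.5 and 12.4 CPM in BXPC3. Of the other sums, endothelial markers reached 11.9 CPM and acinar markers 15.3 CPM at most, both in BXPC3 vehicle libraries. The immune sum of up to 216 CPM in PANC1 was almost entirely CD68, with CD3D and NKG7 at 0 in all PANC1 libraries. The part of these genes in the results was not tested.

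ZEB1, a zinc-finger repressor of CDH1 (deposited span chr10:31318495-31529814), rose with all 3 treatments in PANC1. In PANC1, ZEB1 stood at 124, 121 and 124 CPM with the combination, 132, 123 and 129 CPM with SR4, 79.1, 82.1 and 83.9 CPM with lonidamine and 60.0, 58.7 and 59.8 CPM with vehicle. SR4 and the combination overlapped, lonidamine lay between them and vehicle, and vehicle lay lowest. The log2 change was 1.10 (SE 0.0467, adjusted p = 2.72e-18) with the combination, 1.11 (SE 0.0472, adjusted p = 7.22e-18) with SR4 and 0.44 (SE 0.0487, adjusted p = 6.56e-09) with lonidamine. SR4 alone thus gave a level 2.16-fold that of vehicle, and the combination differed from it by -0.01 (SE 0.0422, adjusted p = 0.836), which did not pass. ZEB1-AS1 on the other strand averaged at most 1.80 ± 0.289 CPM in a PANC1 group (SD, n = 3). ZEB1 rose in the same PANC1 libraries in which CDH1, ELF3, CDH2, S100A4 and MMP2 fell.

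In BXPC3, ZEB1 stood at 1.82, 2.30 and 3.70 CPM with the combination, 0.959, 1.91 and 2.18 CPM with SR4, 2.06, 2.71 and 2.32 CPM with lonidamine and 1.71, 1.07 and 1.29 CPM with vehicle. These values rest on 10 to 32 counts per library, and neighbouring groups overlapped all along the order. ZEB1-AS1 averaged 0.843 ± 0.170 CPM with the combination, 0.454 ± 0.263 with SR4, 0.652 ± 0.120 with lonidamine and 0.317 ± 0.343 with vehicle (SD, n = 3 each). Without a stated strand setting, its part in the BXPC3 values of ZEB1 cannot be told apart. ZEB1 was higher by 0.94 (SE 0.326, adjusted p = 0.0112) with the combination and by 0.80 (SE 0.325, adjusted p = 0.0319) with lonidamine, and SR4 gave 0.29 (SE 0.347, adjusted p = 0.471), not past the threshold. The combination call ended without combination replicate 3 (adjusted p = 0.137). The lonidamine call ended without vehicle replicate 2 or 3 or lonidamine replicate 2 or 3, at adjusted p values of 0.108, 0.0779, 0.111 and 0.0508, and with DESeq2's test (adjusted p = 0.0695).

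SNAI2 in BXPC3 rose with either compound alone and fell with both together. In BXPC3, SNAI2 stood at 73.7, 75.6 and 78.8 CPM with the combination, 153, 145 and 151.9 CPM with SR4, 146, 150.1 and 143 CPM with lonidamine and 113, 113 and 115 CPM with vehicle. SR4 and lonidamine overlapped above vehicle, and the combination lay below vehicle. The log2 change was -0.57 (SE 0.0464, adjusted p = 1.38e-11) with the combination, 0.40 (SE 0.0424, adjusted p = 5.05e-09) with SR4 and 0.38 (SE 0.0427, adjusted p = 1.38e-08) with lonidamine. In PANC1, SNAI2 was too low for the test. It had 4, 7 and 5 counts with the combination, 9, 11 and 13 with SR4, 3, 3 and 4 with lonidamine and 4, 1 and 2 with vehicle. SR4 lay above all other PANC1 groups, with 33 counts against 7 with vehicle, a depth-adjusted ratio of 4.40 (95% exact interval 1.91 to 11.8, counting error only). The ratio of the combination to vehicle was 1.92 (0.745 to 5.504). ZEB2 had at most 9 counts in any group of 3 libraries in either line. In PANC1 the interval of its ratio to vehicle included 1 with every treatment. In BXPC3 it had 0, 1 and 0 counts with the combination and 3, 4 and 2 with vehicle, without overlap, a depth-adjusted ratio of 0.133 (0.00302 to 0.957), and its intervals with SR4 and lonidamine included 1.

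**Figure D3:**
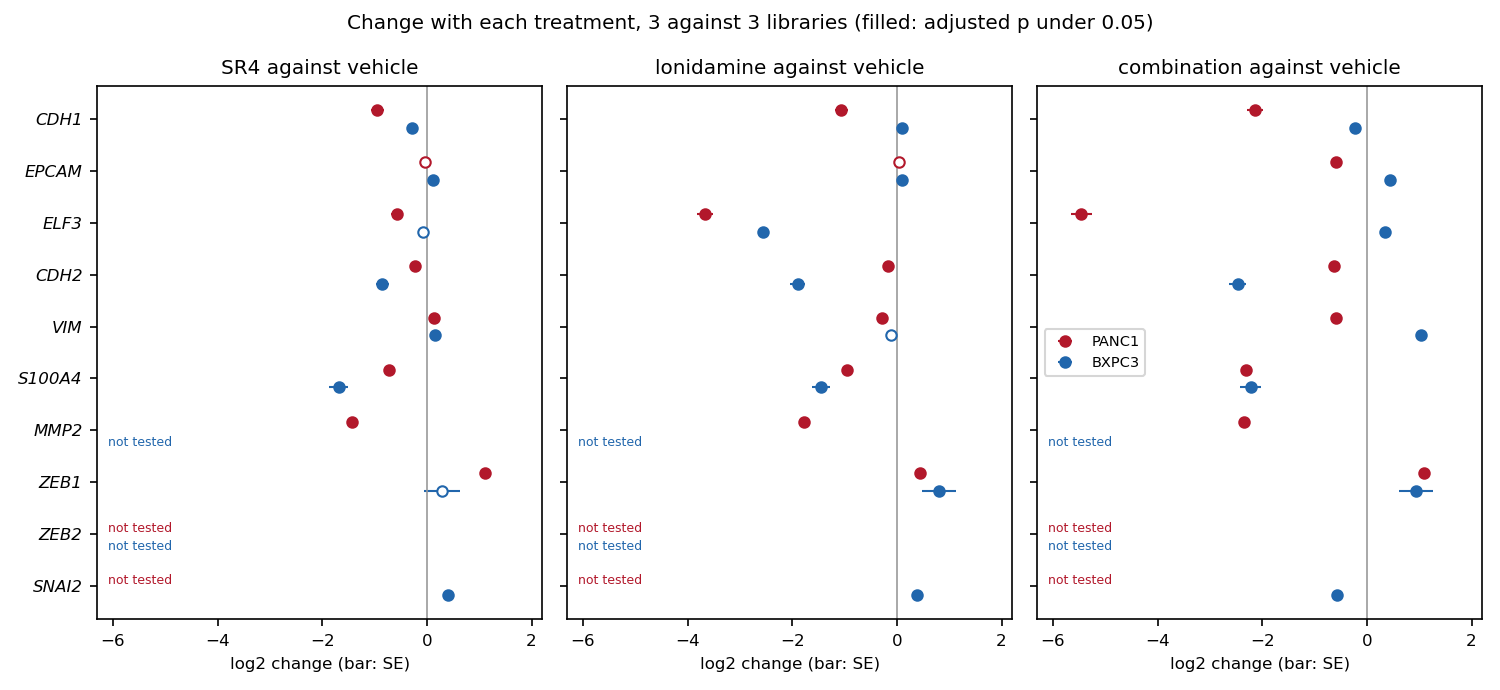
Log2 change against vehicle with SR4, lonidamine and the combination, from left to right, in PANC1 (red) and BXPC3 (blue), with bars for the SE and filled points for an adjusted p under 0.05. CDH2 and S100A4 lie left of 0 in both lines under every treatment, ELF3 with lonidamine likewise, and VIM, EPCAM and ELF3 lie on opposite sides with the combination.

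Adding the second compound to the first changed most members. Set against SR4 alone, the combination gave 0 higher and 7 lower of 8 members in PANC1 beside 66.5% (33.2% higher, 33.4% lower) of all genes called, and 3 higher and 2 lower of 8 in BXPC3 beside 60.8% (30.3% higher, 30.5% lower). The member that did not pass in PANC1 was ZEB1. In BXPC3, CDH1, S100A4 and ZEB1 did not pass, S100A4 at -0.54 (SE 0.250, adjusted p = 0.0646) and ZEB1 at 0.64 (SE 0.316, adjusted p = 0.0805). S100A4 passed when only the groups compared were fitted (adjusted p = 0.0473), and ZEB1 without combination replicate 1 or the SR4 replicate that has no number (adjusted p = 0.0355 and 0.0439). Set against lonidamine alone, 1 was higher and 7 lower of 8 in PANC1 beside 74.6% (37.1% higher, 37.5% lower), and 3 higher and 4 lower of 8 in BXPC3 beside 60.8% (30.1% higher, 30.7% lower). VIM in BXPC3 was higher with the combination than with either compound, at log2 changes of 0.90 against SR4 and 1.15 against lonidamine. SNAI2 in BXPC3 was lower with the combination than with either, at -0.97 and -0.95. In PANC1 every tested member but ZEB1 thus lay lower with both compounds than with either one. CDH2 in BXPC3 stood at -0.57 (SE 0.217, adjusted p = 0.0253) against lonidamine, a call that ended without combination replicate 1 or 3 or lonidamine replicate 2 (adjusted p = 0.0747, 0.114 and 0.0585), and with DESeq2's test (adjusted p = 0.0549). S100A4 in BXPC3 stood at -0.77 (SE 0.244, adjusted p = 0.00805) against lonidamine, which did not pass without lonidamine replicate 3 (adjusted p = 0.0617).

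The SR4 by lonidamine interaction asks whether the combination's log2 change differs from the sum of the 2 single changes. It was past the threshold for 7 of 8 members in PANC1, 1 above and 6 below the sum, beside 60.9% (30.8% higher, 30% lower) of all genes. In BXPC3 it was past the threshold for 5 of 8, 4 above and 1 below, beside 49.2% (23.7% higher, 25.5% lower). ELF3 in BXPC3 had the largest departure of any member: the combination stood at 0.35 where the single changes summed to -2.62, an interaction of 2.97 (SE 0.125, adjusted p = 9.79e-17). In PANC1, ELF3 departed the other way, with -5.46 against a sum of -4.24, an interaction of -1.22 (SE 0.373, adjusted p = 0.006) that rests on the 16 counts of the combination libraries.

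VIM in BXPC3 stood at 1.04 against a sum of 0.04, an interaction of 1.003 (SE 0.0743, adjusted p = 1.51e-11), and in PANC1 its interaction was -0.43 (SE 0.0449, adjusted p = 2.81e-09). SNAI2 in BXPC3 stood at -0.57 against a sum of 0.78, an interaction of -1.35 (SE 0.0625, adjusted p = 7.80e-16). EPCAM lay below the sum in PANC1 (-0.60) and above it in BXPC3 (0.23), with adjusted p values of 5.00e-05 and 0.00109. MMP2 in PANC1 fell less than the sum, with an interaction of 0.87 (SE 0.101, adjusted p = 2.37e-08). S100A4 fell more than the sum in PANC1, with an interaction of -0.65 (SE 0.0779, adjusted p = 4.85e-08), and less in BXPC3, with 0.91 (SE 0.314, adjusted p = 0.0179). The BXPC3 call for S100A4 ended without lonidamine replicate 1 or combination replicate 1 or 3 (adjusted p = 0.0545, 0.0618 and 0.0527). CDH2 and ZEB1 lay below the sum in PANC1, with interactions of -0.23 (SE 0.0685, adjusted p = 0.00498) and -0.45 (SE 0.0645, adjusted p = 8.38e-07), and neither passed in BXPC3, at 0.28 (SE 0.258, adjusted p = 0.39) and -0.16 (SE 0.455, adjusted p = 0.801). CDH1 did not pass in either line, with interactions of -0.14 (SE 0.214, adjusted p = 0.604) in PANC1 and -0.05 (SE 0.0547, adjusted p = 0.499) in BXPC3.

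**Figure D4:**
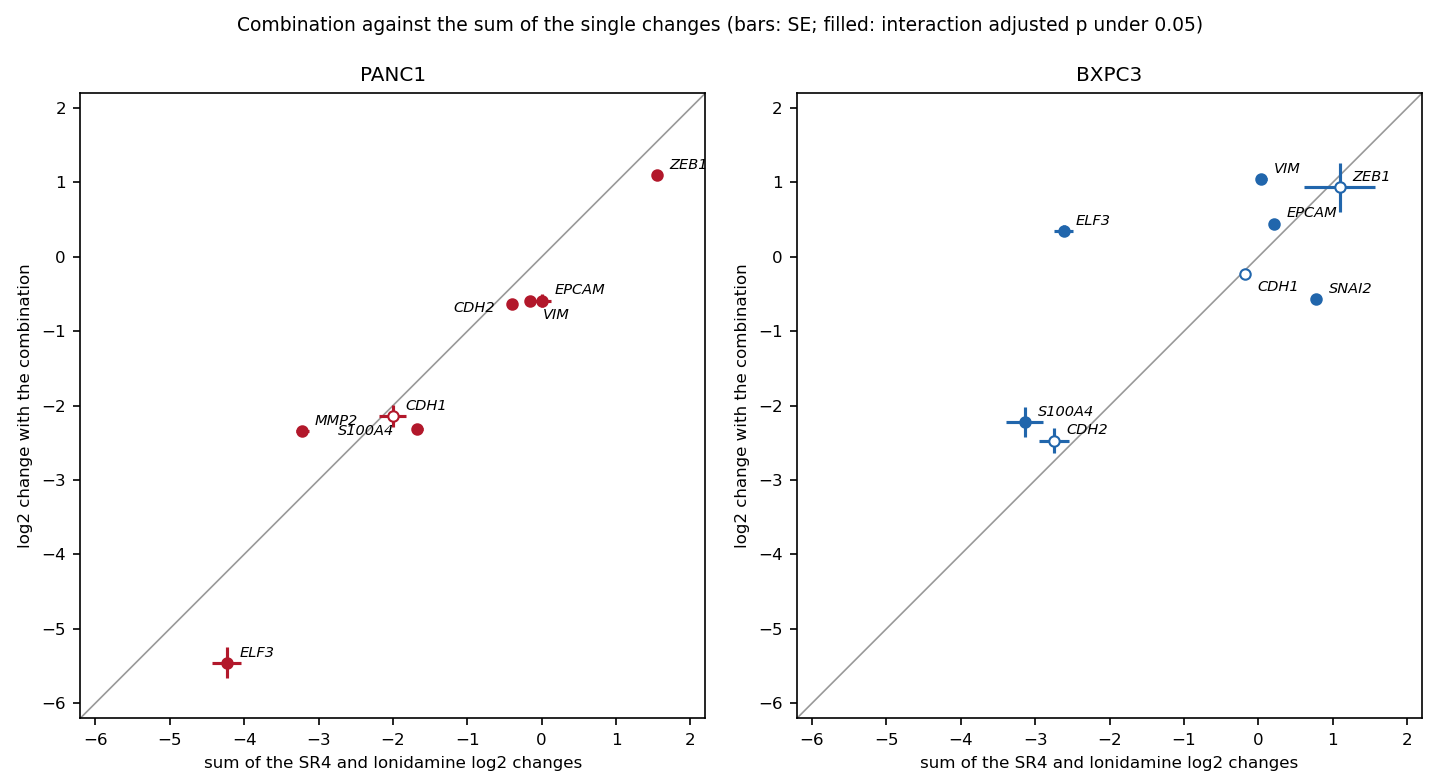
Log2 change with the combination against the sum of the SR4 and lonidamine log2 changes, PANC1 left and BXPC3 right, with bars for the SE, filled points for an interaction past the threshold and a grey line where both are equal. ELF3 lies far above the line in BXPC3 (0.35 against -2.62) and below it in PANC1 (-5.46 against -4.24).

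The fit of both lines tested whether a member's response differed between them. For the combination, the difference was past the threshold for 6 of 9 members, 2 higher and 4 lower in PANC1, beside 61.9% (31.7% higher, 30.2% lower) of 13930 genes. ELF3 differed most, with a PANC1 minus BXPC3 difference of -5.84 (SE 0.226, adjusted p = 1.87e-23), then CDH1 at -1.95 (SE 0.138, adjusted p = 2.55e-15), VIM at -1.67 (SE 0.0561, adjusted p = 2.09e-25) and EPCAM at -1.07 (SE 0.0854, adjusted p = 6.32e-14). CDH2, which fell more in BXPC3, differed the other way, at 1.80 (SE 0.170, adjusted p = 6.76e-12). The gap between the lines in ELF3 thus widened: it averaged 0.457 ± 0.193 CPM in PANC1 and 67.8 ± 3.41 CPM in BXPC3 with the combination (SD, n = 3 each), against 21.5 ± 1.84 and 53.5 ± 2.59 CPM with vehicle. The difference for S100A4 was -0.13 with an SE of 0.224 (adjusted p = 0.647), and that for ZEB1 0.12 with an SE of 0.295 (adjusted p = 0.754). SNAI2 differed by 1.45 (SE 0.501, adjusted p = 0.0299), which rests on 16 and 7 PANC1 counts and ended without PANC1 vehicle replicate 2 or 3 or combination replicate 2 (adjusted p = 0.129, 0.0536 and 0.119).

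With SR4, 4 of 9 differences were higher and 2 lower in PANC1, beside 51.2% (26.2% higher, 24.9% lower) of genes called. CDH1 and ELF3 responded lower in PANC1, at differences of -0.67 and -0.51 on the log2 scale, and CDH2 and S100A4 higher, at 0.62 and 0.97. The changes of CDH1 and ELF3 thus lay lower in PANC1, and those of CDH2 and S100A4 lower in BXPC3. ZEB1 also responded higher in PANC1, by 0.82 (SE 0.301, adjusted p = 0.0223), which ended without BXPC3 vehicle replicate 1 or BXPC3 SR4 replicate 1 (adjusted p = 0.162 and 0.154). SNAI2 differed by 1.72 (SE 0.427, adjusted p = 0.00264), resting on the 33 and 7 counts in PANC1. The difference for EPCAM, -0.15 (SE 0.0824, adjusted p = 0.119), passed, of the alternatives run, only with DESeq2's size factors (adjusted p = 0.0345).

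With lonidamine, 2 of 9 differences were higher and 3 lower in PANC1, beside 41.8% (23.5% higher, 18.2% lower) of genes called. CDH1 and ELF3 again responded lower in PANC1, at -1.12 and -1.08, and CDH2 higher, at 1.76. S100A4 responded higher by 0.53 (SE 0.165, adjusted p = 0.00859), which ended without BXPC3 lonidamine replicate 1 (adjusted p = 0.12). VIM responded lower, at -0.15 (SE 0.0587, adjusted p = 0.0344), a call that ended without BXPC3 vehicle replicate 2 or 3, BXPC3 lonidamine replicate 1 or PANC1 lonidamine replicate 1 (adjusted p = 0.0576, 0.0623, 0.0759 and 0.0592). The fitted differences for MMP2 had SEs of 0.940 to 1.46 at the few counts in BXPC3, and none passed.

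Other genes of the epithelial and mesenchymal programs were counted in 7 lists that leave the 10 members out. Between PANC1 and BXPC3 with vehicle, these lists did not all follow the members. In PANC1, 14 matrix and surface genes were higher and 12 lower (median 0.09), with 10 and 12 among cytoskeleton genes (median -0.58). The metalloproteinase list had 4 higher and 13 lower (median -4.975), and the S100 genes 3 and 8 (median -3.475). EMT factors held 9 higher and 8 lower. The junction and regulator lists were mostly lower in PANC1 (3 higher and 24 lower, 3 and 32). With the combination in PANC1, more genes fell than rose in each of the 3 mesenchymal lists. Of the matrix and surface genes 3 rose and 21 fell of 25 tested (median -0.85), of the cytoskeleton genes 1 rose and 16 fell of 20 tested (median -0.90), and of the metalloproteinases and their inhibitors 2 rose and 7 fell of 10 tested (median -1.25). The epithelial lists also held more falls than rises there. Of the junction and polarity genes 8 rose and 14 fell of 24 tested (median -0.48), and of the epithelial regulators and surface genes 7 rose and 11 fell of 20 tested (median -0.99). The median of all genes tested in that comparison was -0.02. Of the EMT transcription factors and partners 3 rose and 13 fell of 18 tested (median -0.76), and of the S100 genes 1 rose and 7 fell of 8 tested (median -1.003).

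In BXPC3 the lists differed in direction with the combination. Of the junction and polarity genes 15 rose and 8 fell of 28 tested (median 0.34), and of the epithelial regulators 16 rose and 13 fell of 35 tested (median 0.09). Of the cytoskeleton genes 5 rose and 15 fell of 21 tested (median -0.88), while of the matrix and surface genes 10 rose and 11 fell of 23 tested (median 0.00). Of the EMT transcription factors 7 rose and 6 fell of 15 tested (median 0.09), of the S100 genes 2 rose and 7 fell of 11 tested (median -0.58), and of the metalloproteinases and inhibitors 7 rose and 5 fell of 13 tested (median 0.27). The median of all genes tested was -0.000949, so the cytoskeleton list lay lowest against it.

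With SR4 in BXPC3, of the matrix and surface genes 15 rose and 8 fell of 23 tested (median 0.21) and of the epithelial regulators 7 rose and 18 fell of 35 tested (median -0.13), beside a median of 0.00864 for all genes. In PANC1, of those same lists, 8 rose and 13 fell of 25 tested (median -0.15) and 9 rose and 9 fell of 20 tested (median -0.22). With lonidamine, of the cytoskeleton genes 0 rose and 16 fell of 20 tested (median -0.45) in PANC1 and 6 rose and 13 fell of 21 tested (median -0.25) in BXPC3, beside medians of 0.00945 and 0.0257 for all genes. The remaining counts with single compounds are drawn in the plot of list genes. No test was made of a list against other genes.

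**Figure D5:**
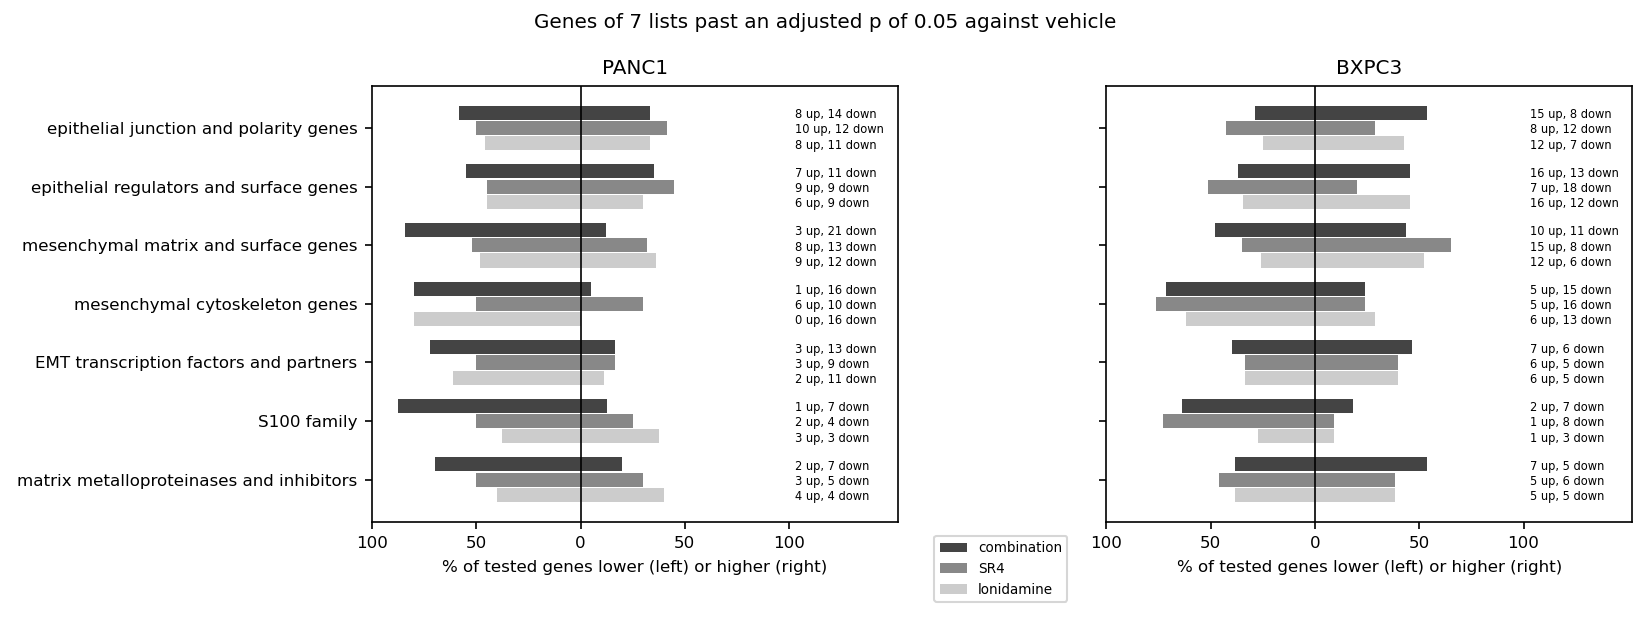
Share of the tested genes of 7 lists that rose (right) or fell (left) past an adjusted p of 0.05 against vehicle, PANC1 left and BXPC3 right, with dark, mid and light bars for the combination, SR4 and lonidamine and the counts beside them. In PANC1 the combination lowered 21 of 25 matrix and surface genes and 16 of 20 cytoskeleton genes.

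Single genes of the lists were named by how often they ranked among the largest movers, and their values are log2 changes. S100A10, the annexin A2 partner and a relative of S100A4, fell in all 6 comparisons with vehicle, at -1.80 with the combination in PANC1 and -0.998 in BXPC3. LOX, which crosslinks collagen, rose with the combination to 9.10 ± 0.575 CPM in PANC1, against 0.882 ± 0.138 CPM with vehicle, and to 87.0 ± 4.65 CPM in BXPC3, against 9.16 ± 0.291 CPM with vehicle (SD, n = 3 each). LOX thus rose in both lines while MMP2, another gene of matrix remodelling, fell in PANC1. DDR2, a collagen receptor, averaged 11.7 ± 1.05 CPM with the combination and 14.6 ± 1.26 CPM with SR4 in PANC1, against 0.423 ± 0.0938 CPM with vehicle, near the floor (SD, n = 3 each). SPARC, a matrix glycoprotein, and NES, the filament protein nestin, fell in PANC1 with the combination, at -2.697 and -2.23.

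HMGA2, a chromatin protein linked to EMT, was called in opposite directions with SR4, at -1.03 in PANC1 and 1.05 in BXPC3. The test of that difference between the lines is not reported here. SOX4, a transcription factor linked to EMT, fell with the combination, at -2.47 in PANC1 and -1.37 in BXPC3. MYL9, a myosin light chain, fell with the combination at -0.88 in PANC1 and -4.05 in BXPC3, whereas FLNA, an actin crosslinker, fell in PANC1 at -0.61 and rose in BXPC3 at 0.61. FLNA thus had the signs of VIM in the same comparison. KLF8, a zinc-finger factor linked to EMT, rose in BXPC3 with the combination at 2.05.

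CGN, the tight junction protein cingulin, fell with SR4 in both lines, at -1.24 in PANC1 and -1.07 in BXPC3. AGR2, a secretory epithelial protein, fell with lonidamine at -2.07 and -1.85. TJP3, a tight junction scaffold, fell with lonidamine in BXPC3 at -1.74, and MAP7, a microtubule-binding protein of epithelial cells, rose with the combination at 1.70 in PANC1 and 0.44 in BXPC3. OCLN, the tight junction protein occludin, rose with lonidamine at 1.26 in PANC1 and 0.83 in BXPC3, in the same libraries in which ELF3 fell. CLDN1, a claudin of tight junctions, rose with the combination in PANC1 at 0.90 and fell in BXPC3 at -1.45, the reverse of EPCAM. S100P rose in BXPC3 with the combination at 3.08, while its relatives S100A4 and S100A9 fell, S100A9 at -2.76. S100A6 fell with the combination in PANC1 at -1.03 and rose in BXPC3 at 0.65. Of the metalloproteinases, MMP7 fell in BXPC3 at -4.07 and MMP15 in PANC1 at -2.81 with the combination, whereas MMP17 rose in PANC1 at 0.47.

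The genes whose levels most resembled each member's were found by Pearson's r of log2 CPM over the 12 libraries of a line, among 10550 genes in PANC1 and 10848 in BXPC3. These 12 libraries share 4 treatments, so r describes mainly the order of the 4 groups. ELF3 was closest in PANC1 to GPRC5A (r = 0.995) and TMEM123 (r = 0.993) and in BXPC3 to RASSF1 (r = 0.972) and ILDR1 (r = 0.966). CDH1 was closest in PANC1 to COL9A3 (r = 0.991) and GATA5 (r = 0.990) and in BXPC3 to CPT1A (r = 0.972) and IRS1 (r = 0.967). VIM was closest in PANC1 to WDR1 (r = 0.995) and MYL9 (r = 0.990) and in BXPC3 to DHCR7 (r = 0.992) and ELOVL5 (r = 0.992). S100A4 in PANC1 was closest to ANXA2 (r = 0.999) and PKM (r = 0.997), MMP2 to CBX3 (r = 0.994) and CA8 (r = 0.994) and ZEB1 to PAK1IP1 (r = 0.995) and MIER1 (r = 0.995). In BXPC3, SNAI2 was closest to TP63 (r = 0.989) and LITAF (r = 0.979) and CDH2 to CCDC80 (r = 0.994) and IFIT1 (r = 0.992). EPCAM was closest in PANC1 to CACNA1H (r = 0.974) and SLC6A8 (r = 0.973) and in BXPC3 to IGBP1 (r = 0.980) and TESK2 (r = 0.980). None of the 7 members tested in both lines shared a closest gene between them. ZEB1 in BXPC3, at its low counts, had the weakest neighbours, C18orf25 (r = 0.869) and CLCF1 (r = 0.864).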

How the data were processed

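The submitters deposited 1 table of raw read counts per gene for each line, 12 libraries in each, and these counts were used as deposited. Per the labels' protocols, an mRNA library kit (KAPA mRNA Hyper Prep) followed RNeasy extraction. The submitters' processing notes name the builds hg38 and GRCh38 and the tools DESeq2, Partek and STAR 2.7.8a. Of the counting tool, annotation and strand setting, nothing is stated: they were not given in the sources used here. The deposited gene length (kilobases), another kind of column, scaled levels between genes. The third BXPC3 SR4 column carries a number that its sample title does not, so it was kept as a replicate without a number.

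Counts were scaled by TMM, filtered by filterByExpr (minimum count 10) and fitted in edgeR 4.0.16 (R 4.3.3) with 4 groups per line, or 8 groups for both lines. Glm quasi-likelihood tests were adjusted by Benjamini-Hochberg over all genes tested, and the SE is the change divided by the square root of F. The interaction is the combination's change minus both single changes. Intervals of count ratios are 95% exact and cover counting error only. The biological coefficient of variation was 3.79% in PANC1 and 3.95% in BXPC3. No pair of replicates agreed within counting error (chi-square per degree of freedom 1.31 to 3.77). On simulated counts, the fit recovered 91% of genes changed by 0.5 on the log2 scale for SR4 in PANC1 (5 false of 196 calls) and 96% in BXPC3 (11 of 207). The simulation changed only a few well-counted genes and gave every gene the same spread. Its rates therefore do not carry over to these comparisons, where most genes changed, or to members with low counts.

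The members and lists were chosen with earlier results of these data known. All 10 members are named, together with the list genes that ranked in at least 3 of 6 comparisons with vehicle among the 2 largest rises or falls past the threshold at a mean log2 CPM of at least 2. Likeness used log2 CPM with a prior count of 2. Alternatives were to block on replicate number, to leave out each library, to fit only the groups compared, to skip the low-count filter, and to use DESeq2 1.42.0 for size factors or for the test.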

Additional observations from a re-analysis of the deposited data

Results flagged for a closer look

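The responses of the lines differed, by the test of the difference in the fit of both lines, for the members below; each value is the PANC1 log2 change minus the BXPC3 one. With SR4 the differences were -0.67 for CDH1, -0.51 for ELF3, 0.62 for CDH2, 0.97 for S100A4, 0.82 for ZEB1 and 1.72 for SNAI2. With lonidamine they were -1.12 for CDH1, -1.08 for ELF3, 1.76 for CDH2, -0.15 for VIM and 0.53 for S100A4. With the combination they were -1.95 for CDH1, -1.07 for EPCAM, -5.84 for ELF3, 1.80 for CDH2, -1.67 for VIM and 1.45 for SNAI2. Called changes had opposite signs in PANC1 and BXPC3 for ELF3, EPCAM and VIM with the combination, and for CDH1 with lonidamine, where the BXPC3 call did not hold under several alternatives. The 3 sets share their vehicle libraries, and SNAI2 rests on few counts in PANC1.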

How the results depend on the processing

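Of the called changes of the members, 95 kept direction and call under every alternative run and 13 lost the call under at least 1, none of them with a change of sign. Of 24 changes not called, 9 kept that state and 15 changed sign or passed under some alternative. The count of members called with lonidamine in BXPC3, 7, was 4 with DESeq2's test and 4 to 7 when 1 library was left out (4 without vehicle replicate 2 or lonidamine replicate 2). The count for the line difference with lonidamine, 5, was 3 to 5 (3 without BXPC3 lonidamine replicate 1). Every change that turned sign was one not called; the cause was not tested. ZEB1 with the combination against SR4 in PANC1 was 0.017 with no low-count filter, and the MMP2 line difference with SR4 was 0.88 with the replicate block. Leaving out 1 library gave -0.12 to 0.00263 for ELF3 with SR4, -0.20 to 0.34 for ZEB1 with the combination against lonidamine and -0.50 to 0.0856 for its interaction, all in BXPC3. In PANC1 it gave -0.0276 to 0.098 for EPCAM with lonidamine and -0.0405 to 0.0141 for ZEB1 with the combination against SR4. For line differences it gave -0.0487 to 0.0375 (VIM) and -1.12 to 0.95 (MMP2) with SR4, -0.12 to 0.00989 (EPCAM) and -0.51 to 0.38 (SNAI2) with lonidamine, and -0.17 to 0.0259 (S100A4) and -0.00534 to 0.54 (ZEB1) with the combination.

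Libraries with the same replicate number did not deviate together (median r -0.044 in PANC1 and -0.055 in BXPC3, over 0.1 in 3 of 18 and 1 of 15 pairs), so the numbers were not taken to pair them. With the replicate block, the genes called were 0.89 to 0.997 times those without it, and members called with SR4 in BXPC3 were 5 in place of 6, without EPCAM (adjusted p = 0.0785). CDH1 with lonidamine in BXPC3 also lost its call (adjusted p = 0.0597). The interaction has no fit of only the groups compared, since it uses all 4. Depth limits ZEB2 in both lines, SNAI2 in PANC1 and MMP2 in BXPC3.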
